A study of Mus musculus with 16 samples.

Results

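Mouse mammary tumor organoids that carry both a HER2 and a PIK3CA mutation were compared with tumor organoids that carry the PIK3CA mutation alone. The comparison used 9 of the 16 RNA-seq samples in the series, chosen by their genotype labels: 5 double mutant samples and 4 PIK3CA mutant samples. The series names the alleles as HER2 V777L and PIK3CA H1047R. Organoids of both groups were grown from breast tumors, so the PIK3CA mutation and the tumor source are shared, and the HER2 mutation is the labelled difference. The remaining 7 samples were 4 HER2 mutant organoid samples, also from tumors, and 3 wild-type (WT) samples from normal breast; they enter the estimate of the spread and a second contrast, HER2 mutant over WT, at the end. All organoids grew in medium with B27, N-acetyl-cysteine, epidermal growth factor and conditioned medium that supplies Rspo1 and Noggin. The labels do not state how the mutations were introduced, which promoter drives them, the age of the mice, or whether the samples of a group come from separate mice. The p-values below therefore measure the spread between these samples, which may be partly technical.

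HER2, encoded by Erbb2, is a receptor tyrosine kinase of the ErbB family. It has no known ligand of its own and signals in pairs with the other receptors of the family, EGFR, ERBB3 and ERBB4, which bind EGF-like growth factors and neuregulins. ERBB3 has little kinase activity but docks phosphoinositide 3-kinase (PI3K), whose catalytic subunit p110alpha is encoded by Pik3ca; the kinase domain mutation H1047R makes it more active and feeds AKT and mTOR signalling. In breast cancer, activating HER2 and PIK3CA mutations can occur together, and the series title links the pair to p21, CDK4/6 and cyclin D1.

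Total gene counts of the 9 libraries ranged from 47639790 to 64168308, and 24252 genes had enough reads to be tested. Levels are given in CPM, the read count relative to the TMM-adjusted library total, and differences as log2 fold changes of double over PIK3CA mutant, with the standard error (SE). Two-sided p-values are from the quasi-likelihood test of edgeR, adjusted over all genes tested, and a gene was called when its adjusted p was under 0.05. Markers of mammary epithelium were present: the keratins Krt8 and Krt18 had group means between 603 and 991 CPM, and Epcam, an adhesion protein of epithelial cells, 640 CPM in the PIK3CA mutant and 547 CPM in the double mutant. The double mutant samples were less alike than the PIK3CA mutant samples. The first principal component of the 9 samples held 29.6% of the variance and put double mutant replicates 2 and 3, at 95.2 and 83.3, far from the other 7 samples, which lay between -42.5 and 5.91. On the second component, with 19.9% of the variance, the PIK3CA mutant samples lay between 24.1 and 56.1 and the double mutant samples between -55.1 and 12.8. Distances between samples were taken as the root mean square difference in log2 CPM over all tested genes. They were 0.635 to 0.746 within the PIK3CA mutant, 0.588 to 1.12 within the double mutant and 0.714 to 1.09 between the groups. Values without these replicates are given beside the results that they change most.

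**Figure D1:**
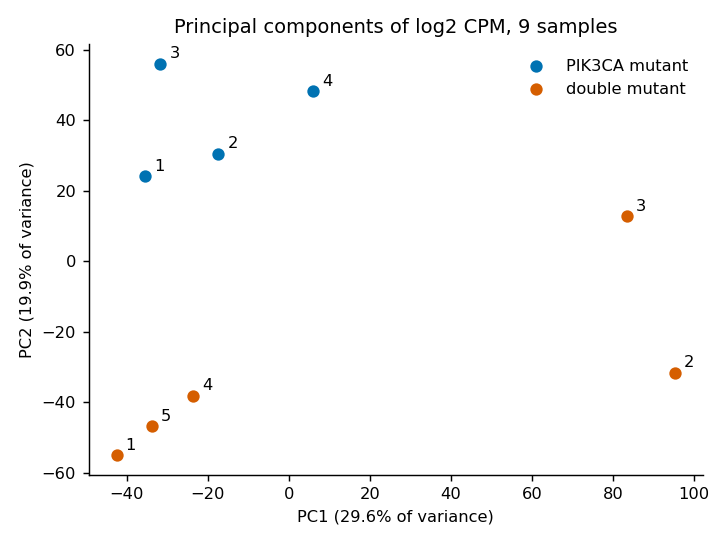
First against second principal component of log2 CPM for the 9 samples; points are samples, numbered by replicate. Double mutant replicates 2 and 3 lie alone on the right, and the PIK3CA mutant samples lie above the double mutant samples.

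Few genes passed the test across the whole table. Of 24252 genes, 163 (0.672%) were called: 75 (0.309%) were higher and 88 (0.363%) lower in the double mutant. The background without a test was wider: in 3.42% of the genes every double mutant sample lay above every PIK3CA mutant sample, and in 4.5% every double mutant sample lay below. Among the called genes the groups did not overlap in 73 of the 75 higher genes and 86 of the 88 lower genes. Of the 163 genes, 134 were protein coding, 41 rose by more than 1 on the log2 scale and 57 fell by more than 1. The median log2 fold change over all genes tested was 0.04, with 13287 values positive and 10958 negative. An unadjusted p under 0.05 was reached by 3012 of the 24252 genes. Counts for the gene lists below are to be read beside these. In bulk RNA fewer cells of a type and less RNA per cell cannot be told apart, for these genes and those below. The calls were sensitive to single samples: 39, 21, 17 and 30 genes were called without PIK3CA mutant replicates 1 to 4, and 69, 62, 143, 65 and 50 without double mutant replicates 1 to 5. Of the 163 genes, 16 were called in all 9 of these fits. Without double mutant replicates 2 and 3 together, 213 genes were called, 91 of them among the 163.

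**Figure D2:**
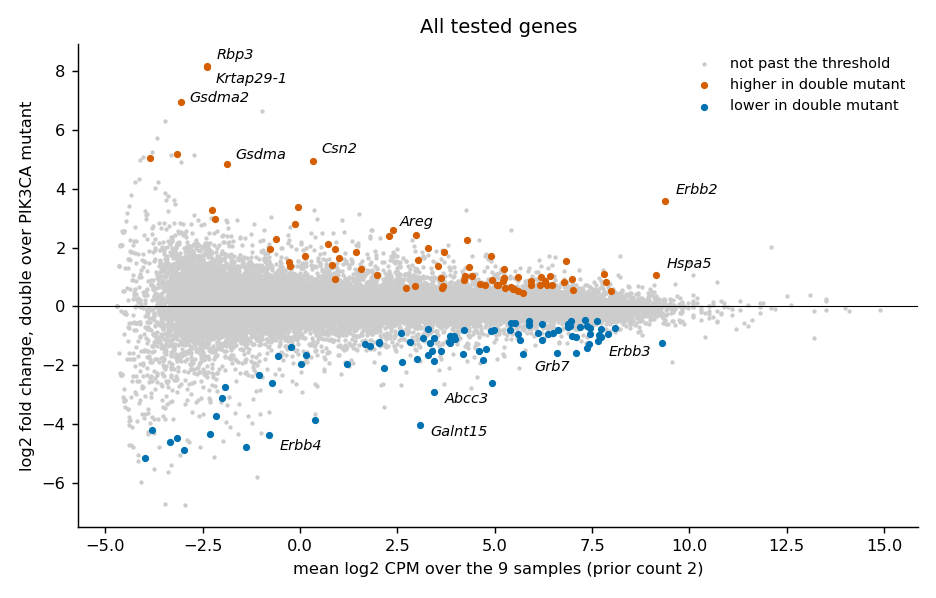
Log2 fold change, double over PIK3CA mutant, against mean log2 CPM of the 9 samples for the 24252 genes tested; orange and blue points are the 75 higher and 88 lower genes. Erbb2 is the called gene that combines a high level with a large positive change, and the largest fold changes lie at low levels on the left.

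Erbb2 was the gene with the lowest p in the comparison. Its level was 149, 165, 188 and 171 CPM in the 4 PIK3CA mutant samples and 1499, 2751, 2705, 1553 and 1649 CPM in the 5 double mutant samples. Every double mutant sample was thus far above every PIK3CA mutant sample, and replicates 2 and 3 were the highest. The log2 fold change was 3.59 ± 0.24 (SE), or 12.1-fold (edgeR adjusted p = 2.19e-06). For reference, Erbb2 averaged 156 ± 13.1 CPM (SD, n = 3) in WT and 3600 ± 803 CPM (SD, n = 4) in the HER2 mutant. The gene lies on mouse chromosome 11, plus strand, at chr11:98412470-98437716 (mm10), and its last bases overlap Mien1 on the other strand (log2 fold change of Mien1 0.21; edgeR adjusted p = 0.693). Whether the counts of Erbb2 include reads from an introduced copy is not stated in the sources used here, and the gene-level counts do not show the alleles. Pik3ca itself had 91.6, 106, 96.1 and 110 CPM in the PIK3CA mutant and 110 to 122 CPM in the double mutant (log2 fold change 0.18 ± 0.09; edgeR adjusted p = 0.451).

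Part of the partner receptors and adaptors of HER2 went the other way. Of 12 tested genes in this list, 1 rose (Erbb2) and 4 fell (Erbb3, Erbb4, Grb7 and Gab1), with a list median of -0.15. Erbb3, the receptor that docks PI3K, had 302, 326, 323 and 318 CPM in the PIK3CA mutant and 143, 128, 134, 162 and 133 CPM in the double mutant. The groups lay far apart with little spread inside each, and the gene fell by 1.18 ± 0.12 on the log2 scale (edgeR adjusted p = 0.000332). Grb7, an adaptor that binds phosphorylated HER2 and lies 0.0339 Mb downstream of Erbb2 by start position, had 80.3, 107, 108 and 105 CPM against 27.9, 34.5, 37.6, 34.4 and 26.9 CPM. It fell by 1.63 ± 0.14 (edgeR adjusted p = 6.79e-05), so that it was 3.10-fold lower beside a 12.1-fold higher neighbour. Gab1, a docking protein that links receptors to PI3K, ranged from 140 to 156 CPM in the PIK3CA mutant and from 91.4 to 107 CPM in the double mutant, and fell by 0.58 ± 0.11 (edgeR adjusted p = 0.0256). Erbb4, a neuregulin receptor of low level here, had 0.811, 2.87, 5.14 and 4.34 CPM in the PIK3CA mutant and 0.0393 to 0.369 CPM in the double mutant (log2 fold change -4.38 ± 0.95; edgeR adjusted p = 0.0499). Egfr, the EGF receptor, had 168 to 192 CPM and 152 to 200 CPM, overlapping ranges with a log2 fold change of -0.10 ± 0.12 (edgeR adjusted p = 0.809). The calls of Erbb2, Erbb3 and Grb7 stood in all 9 fits that left out 1 sample, with adjusted p of at most 0.00265. Gab1 kept its call in 1 of these fits (largest adjusted p 0.119) and Erbb4 in 0 (largest adjusted p 0.176). Without double mutant replicates 2 and 3, Erbb4 was the only 1 of the 5 that lost its call, at an edgeR adjusted p of 0.13.

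**Figure D3:**
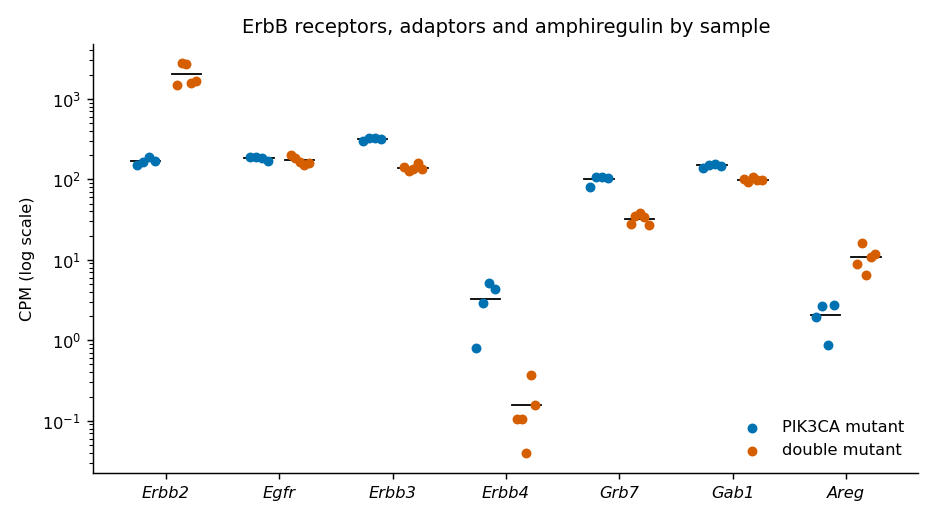
CPM on a log axis for ErbB receptors, the adaptors Grb7 and Gab1, and the ligand gene Areg; points are samples and black bars are group means. Erbb2 and Areg are higher in all 5 double mutant samples, Erbb3, Erbb4, Grb7 and Gab1 are lower in all 5, and the Egfr ranges overlap.

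Among the ligands of these receptors, 1 of 10 tested genes rose and 0 fell, with a median of 0.32. Areg encodes amphiregulin, an EGFR ligand that carries estrogen-dependent growth signals in mammary ducts. It had 1.96, 2.67, 0.864 and 2.75 CPM in the PIK3CA mutant and 8.88, 15.9, 6.38, 10.7 and 11.9 CPM in the double mutant. The groups did not overlap, and the log2 fold change was 2.38 ± 0.39 (edgeR adjusted p = 0.0148; called in 6 of the 9 fits that left out 1 sample, largest adjusted p 0.0587). Ereg, the gene of epiregulin, had a log2 fold change of 1.53 and an edgeR adjusted p of 0.343, with overlapping groups (log2 fold change 0.61 without double mutant replicates 2 and 3). Nrg1, the neuregulin gene that activates ERBB3 and ERBB4, was at 60.6 CPM and 69.2 CPM.

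A group of tissue-restricted genes was read in libraries with the HER2 mutation and was at or near 0 counts in the others. They were singled out after their values were seen. Rbp3, the gene of a retinoid-binding protein of the retina on chromosome 14, had 0 counts in all 4 PIK3CA mutant and all 3 WT libraries, 28 to 52 counts in each double mutant library and 45 to 91 counts in each HER2 mutant library. Krtap29-1, a hair keratin-associated protein gene on chromosome 11, likewise had 0 counts in the PIK3CA mutant and WT libraries, 22 to 46 counts in the double mutant and 20 to 84 in the HER2 mutant. Against a floor of 3 counts over the whole PIK3CA mutant group, Rbp3 was at least 48.1-fold higher and Krtap29-1 at least 47.3-fold higher in the double mutant. Gsdma2, a gasdermin gene, had 0 counts in the PIK3CA mutant, 4 in the WT libraries together and 8 to 32 in each double mutant library, at least 20.7-fold higher than the floor. Its relative Gsdma had 0.0954, 0, 0 and 0.0179 CPM in the PIK3CA mutant and 0.621, 1.39, 1.51, 0.647 and 0.70 CPM in the double mutant. Since these genes were chosen for this pattern, and Rbp3, Krtap29-1 and Gsdma2 could pass the filter on low counts only through the groups that express them, no test is given. Their levels stayed under 2 CPM in every double mutant library. Fstl4, also at 0 counts in the PIK3CA mutant, had only 2 to 7 counts in each double mutant library but 250 in the WT libraries together.

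**Figure D4:**
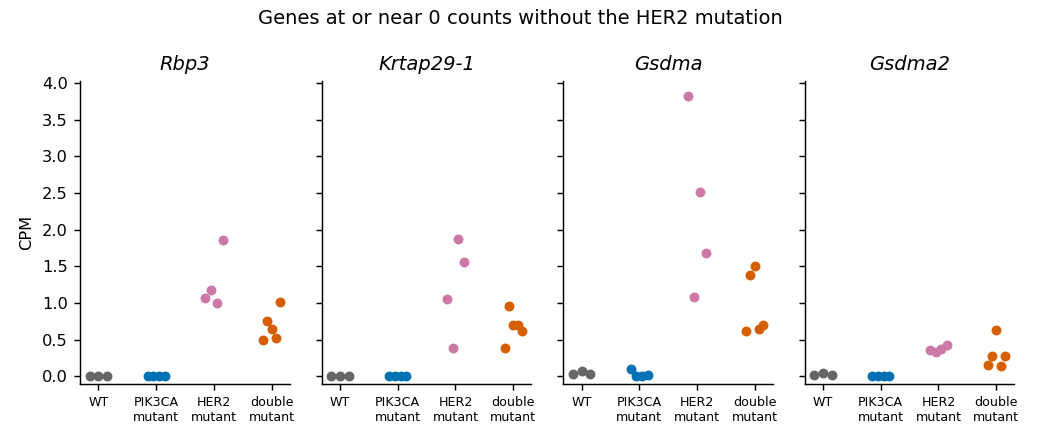
CPM of Rbp3, Krtap29-1, Gsdma and Gsdma2 in all 16 libraries by genotype; points are samples. All HER2 mutant and double mutant libraries lie above all WT and PIK3CA mutant libraries for each of the 4 genes.

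Gsdma2 and Gsdma lie on chromosome 11 close to Erbb2, with starts 0.234 and 0.252 Mb away, and Krtap29-1 lies 1.57 Mb away. Of 73 other tested genes whose start is within 1 Mb of that of Erbb2, 2 were higher (Gsdma and Gsdma2), 1 was lower (Grb7) and the median log2 fold change was 0.06. Chromosome 11 held 17.3% of the higher genes, 7 of the 88 lower genes and 7.3% of all genes tested. Its higher genes include Erbb2 itself and Gsdma, Gsdma2, Krtap29-1 and Fstl4, which were picked above after their values were seen. These counts are therefore a description only. Transcripts of the Rosa26 locus on chromosome 6, a site often used to insert transgenes, were also looked at. The noncoding Gt(ROSA)26Sor had 1.37, 0.868, 1.06 and 1.02 CPM in the PIK3CA mutant and 2.50, 5.66, 3.67, 2.59 and 2.57 CPM in the double mutant. It rose by 1.65 ± 0.26 on the log2 scale without overlap (edgeR adjusted p = 0.013; called in 6 of the 9 fits that left out 1 sample, largest adjusted p 0.0734). It averaged 2.24 ± 0.131 CPM (SD, n = 3) in WT, above the PIK3CA mutant. Gt(ROSA)26Sor overlaps Thumpd3 on the other strand, and whether the counting used strand is not given in the sources used here, so reads of the overlap cannot be assigned with certainty. Thumpd3 itself had 15.6 and 14.3 CPM. Setd5, the next gene on the plus strand, had 343 ± 15.5 CPM (SD, n = 4) and 546 ± 148 CPM (SD, n = 5), without overlap but not called (log2 fold change 0.67 ± 0.19; edgeR adjusted p = 0.138).

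Genes of the integrated stress response and of endoplasmic reticulum (ER) stress formed the list with most called members. ATF4 is a transcription factor whose translation increases when amino acids are short or proteins misfold in the ER, and it switches on amino acid synthesis and transport genes. Of 18 tested genes, 8 rose and 0 fell: Atf4, Trib3, Chac1, Asns, Mthfd2, Sesn2, Hspa5 and Slc7a11. The list median was 0.92, against 0.04 over all genes, and 17 of the 18 log2 fold changes were positive. The regulator Atf4 had 163, 165, 161 and 198 CPM in the PIK3CA mutant and 385, 274, 230, 295 and 345 CPM in the double mutant (log2 fold change 0.83 ± 0.16; edgeR adjusted p = 0.0257). Hspa5, the ER chaperone BiP, had 392, 357, 328 and 432 CPM against 816, 965, 664, 590 and 933 CPM (1.07 ± 0.20; edgeR adjusted p = 0.0265). For both genes the lowest double mutant sample lay above the highest PIK3CA mutant sample.

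The effectors had larger fold changes and a wider spread. Mthfd2, a mitochondrial folate enzyme, had 6.54, 6.28, 4.30 and 10.0 CPM in the PIK3CA mutant and 33.2, 15.3, 14.2, 26.8 and 31.9 CPM in the double mutant (1.84 ± 0.34; edgeR adjusted p = 0.0256). Slc7a11, the cystine importer, had 6.14, 3.8, 3.59 and 6.18 CPM against 21.6, 18.7, 6.42, 28.5 and 21.9 CPM (1.98 ± 0.38; edgeR adjusted p = 0.0286). Its lowest double mutant value, in replicate 3, lay just above the PIK3CA mutant range. Asns, asparagine synthetase, had 19.2, 15.5, 12.9 and 19.8 CPM against 86.0, 35.7, 18.2, 61.1 and 72.6 CPM (1.70 ± 0.36; edgeR adjusted p = 0.0492). Chac1, which degrades glutathione, had 2.46 to 4.57 CPM against 33.1, 6.15, 4.48, 23.6 and 30.6 CPM (2.43 ± 0.53; edgeR adjusted p = 0.0496). In Asns and Chac1 replicate 3 fell inside the PIK3CA mutant range, and replicates 2 and 3 were the lowest double mutant samples. Trib3, a pseudokinase induced by ATF4, ranged from 41.0 to 57.8 CPM and from 75.9 to 138 CPM (0.99 ± 0.20; edgeR adjusted p = 0.0406). Sesn2, a leucine sensor that restrains mTORC1, ranged from 40.3 to 54.4 CPM and from 72.3 to 91.2 CPM (0.86 ± 0.18; edgeR adjusted p = 0.0483). Ddit3, which encodes the stress factor CHOP, went the other way among the replicates: it had 18.2, 68.7, 178, 18.8 and 27.4 CPM in the double mutant, highest in replicates 2 and 3, against 10.5 to 19.0 CPM, and was not called (2.26; edgeR adjusted p = 0.153; 0.72 without replicates 2 and 3). Without replicates 2 and 3 the list again held 8 called genes, 7 of them shared; Sesn2 was lost and Phgdh, an enzyme of serine synthesis, was gained. Each of the 8 genes kept its call in 0 to 3 of the 9 fits that left out 1 sample. Leaving out single samples gave between 0 and 7 called members of the list, and the fit on the 9 samples alone gave 6, without Asns and Chac1. A fit with replicate number as a block gave 0.

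**Figure D5:**
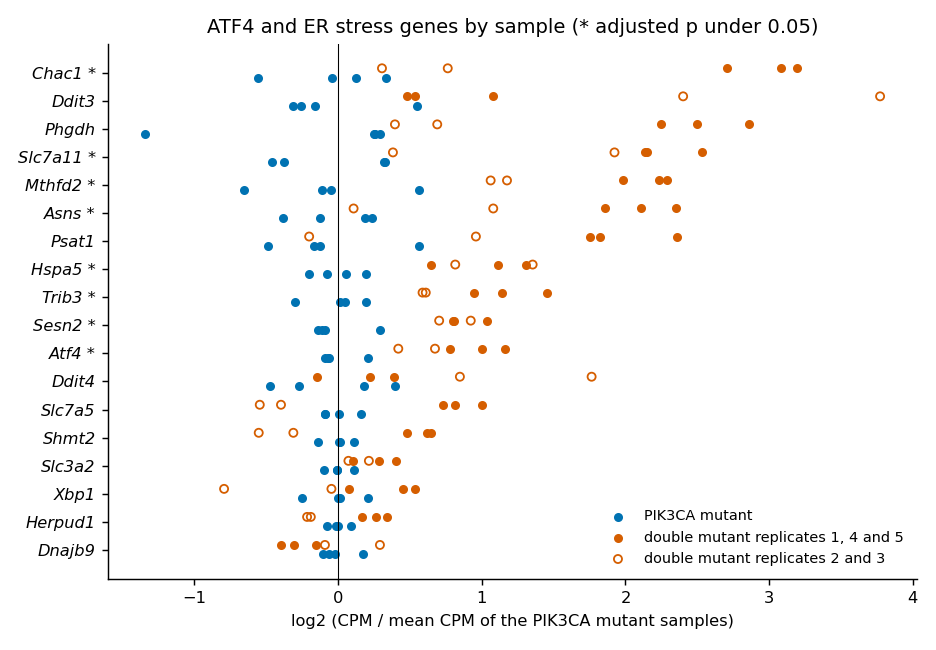
Each sample's CPM relative to the mean of the PIK3CA mutant samples, on a log2 axis, for the 18 genes of the ATF4 and ER stress list, ordered by fold change; stars mark the 8 called genes and open circles are double mutant replicates 2 and 3. In Chac1, Asns, Mthfd2 and Slc7a11 the open circles lie left of the filled orange ones, and in Ddit3 they lie right of them.

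The promoters of these genes are shown because ATF4 and the ER stress factors are known to act through short elements near the start site. Promoter sequence from RefSeq (GRCm38.p6, the mm10 build) was held for 17 of the 18 genes, and the 250 bases before each start were searched on both strands. The core of the amino acid response element, TGATGNAA, was found in 3 of the 8 called genes and in 1 of the 9 genes that were not called (Herpud1), and 3.45% of all 32851 promoter windows held it. The ER stress element, CCAAT and CCACG with 9 bases between them, was found in 1 gene, Hspa5, and in 0.113% of all windows. The stretches below run 5′ to 3′ on the strand of the gene, end before its annotated start, and show the element in capitals; in Chac1, and in the second copy of Slc7a11, it lies on the opposite strand.
Asns, minus strand, chr6:7693210-7693309: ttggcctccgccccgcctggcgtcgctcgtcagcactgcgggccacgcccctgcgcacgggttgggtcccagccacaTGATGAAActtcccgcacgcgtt
Slc7a11, minus strand, chr3:50443616-50443715: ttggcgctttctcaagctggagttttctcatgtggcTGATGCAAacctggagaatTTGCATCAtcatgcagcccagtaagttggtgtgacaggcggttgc
Chac1, plus strand, chr2:119351003-119351102: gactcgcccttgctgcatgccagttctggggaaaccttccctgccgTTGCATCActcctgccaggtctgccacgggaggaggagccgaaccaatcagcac
Hspa5, plus strand, chr2:34771985-34772084: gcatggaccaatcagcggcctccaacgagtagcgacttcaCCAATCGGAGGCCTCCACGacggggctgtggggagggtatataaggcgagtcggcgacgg
The 3 genes with the amino acid element, Asns, Slc7a11 and Chac1, had log2 fold changes of 1.70, 1.98 and 2.43. A match of letters is a description of these windows and shows no binding in these organoids.

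The genes in this paragraph were picked after their values were seen. Of 20 cytosolic aminoacyl-tRNA synthetases, enzymes that load amino acids onto tRNA, 3 rose and 0 fell, 18 had positive log2 fold changes and the median was 0.47. Aars, for alanine, had 68.0 to 108 CPM and 160 to 178 CPM (0.95 ± 0.16; edgeR adjusted p = 0.0154). Tars and Rars, for threonine and arginine, rose by 0.86 and 0.72 (edgeR adjusted p = 0.0379 and 0.0367), and each kept its call in 1 of the 9 fits that left out 1 sample; Aars kept it in 6. Xpot, which exports tRNA from the nucleus, had 73.4, 84.2, 69.6 and 96.3 CPM against 133, 143, 160, 130 and 149 CPM (0.82 ± 0.14; edgeR adjusted p = 0.0151; called in 6 of these fits). The arginine and lysine transporter Slc7a1 rose by 1.05 and the glycine transporter Slc6a9 by 1.04 (edgeR adjusted p = 0.0406 and 0.0499; called in 1 and 2 of these fits). In the fit on the 9 samples alone, Rars and Slc6a9 were not called (edgeR adjusted p = 0.051 and 0.055).

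In lipid supply, most genes of fatty acid and cholesterol synthesis had higher values in the double mutant, and few passed the test. Over the 21 genes of this list the median log2 fold change was 0.72, 20 of 21 values were positive, and in 8 genes every double mutant sample lay above every PIK3CA mutant sample. Insig1, which restrains sterol synthesis, had a log2 fold change of 1.73 ± 0.40 (edgeR adjusted p = 0.0642) and Dhcr7, the last step to cholesterol, 1.17 (edgeR adjusted p = 0.067). Without double mutant replicates 2 and 3, both Insig1 and Dhcr7 were called. Outside the list, Msmo1 and Sc5d, enzymes late in cholesterol synthesis, rose by 1.28 and 0.73 (edgeR adjusted p = 0.0342 for each), and were picked after their values were seen. They kept their calls in 1 and 2 of the 9 fits that left out 1 sample, and Msmo1 was not called without replicates 2 and 3 (edgeR adjusted p = 0.089). Mfsd2a, a transporter of lysophosphatidylcholine, had 7.81, 7.19, 13.7 and 6.05 CPM against 53.9, 40.6, 22.1, 37.1 and 52.0 CPM (2.24 ± 0.48; edgeR adjusted p = 0.0493). Lpcat4, a lysophospholipid acyltransferase, had 8.76, 7.21, 4.52 and 7.45 CPM against 14.9, 13.7, 22.1, 20.6 and 19.4 CPM (1.38 ± 0.24; edgeR adjusted p = 0.0211).

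Genes that p53 is known to activate were higher in part. Of 18 tested targets, 3 rose (Gdf15, Plk2 and Sesn2) and 0 fell, the median was 0.69, and in 9 genes every double mutant sample lay above every PIK3CA mutant sample. Sesn2 is also a called member of the ATF4 and ER stress list above, so its call is counted in both lists. Whether p53 or the stress response accounts for these calls was not tested. Gdf15, a secreted stress signal, had 0.795, 1.86, 2.26 and 4.09 CPM against 4.40, 24.2, 18.4, 8.66 and 11.8 CPM (2.58 ± 0.56; edgeR adjusted p = 0.0496). Plk2, a kinase of the polo family, had 148, 148, 141 and 160 CPM against 237, 441, 419, 267 and 240 CPM (1.10 ± 0.22; edgeR adjusted p = 0.0379). In both genes double mutant replicates 2 and 3 were the highest. Without these replicates 0 of the 18 genes were called by edgeR, Gdf15 at an adjusted p of 0.13 and Plk2 at 0.083. Leaving out single samples gave between 0 and 2 called members. DESeq2 on all samples called 5, adding Aen and Zmat3, and the edgeR fit with replicate number as a block called 0.

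The axis named in the series title, p21, CDK4/6 and cyclin D1, held 0 called genes of 14 by edgeR and 0 by DESeq2. At an unadjusted p under 0.05 there were 4 of the 14, against 3012 of all 24252 genes, and the median was 0.28. Cdkn1a, which encodes the CDK inhibitor p21, had 73.7, 85.1, 65.7 and 156 CPM in the PIK3CA mutant and 148, 331, 324, 158 and 167 CPM in the double mutant. PIK3CA mutant replicate 4 lay inside the double mutant range, and replicates 2 and 3 of the double mutant were again the highest (log2 fold change 1.24 ± 0.47; edgeR adjusted p = 0.28; 0.73 without replicates 2 and 3). Ccnd1, cyclin D1, had 344, 286, 176 and 265 CPM against 477, 297, 332, 504 and 545 CPM, with overlap (0.69 ± 0.35; edgeR adjusted p = 0.449). The lowest p values in the list belonged to the INK4 inhibitors. Cdkn2a had 10.3, 8.72, 6.60 and 12.6 CPM against 32.7, 15.1, 15.8, 28.3 and 29.2 CPM (1.34 ± 0.44; edgeR adjusted p = 0.201), and Cdkn2b 14.5 to 18.9 CPM against 23.6 to 32.8 CPM (0.78 ± 0.25; edgeR adjusted p = 0.20). In the fit on the 9 samples alone, Cdkn2a, Cdkn2b and Ccne1, cyclin E1, were called as higher.

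Proliferation genes gave 0 edgeR calls in the fit on all samples. Every double mutant sample lay above every PIK3CA mutant sample in 1 mitosis gene (Cdk1) and 1 replication gene (Ccne1). Over all genes tested this held in 3.42%. Ccne1 was called in the fit on the 9 samples alone, as given above. Of 22 mitosis genes 0 were called by edgeR and 0 by DESeq2 (1 at an unadjusted p under 0.05), although all 22 log2 fold changes were positive (median 0.31). Their summed level was 136 to 327 CPM in the PIK3CA mutant and 171 to 429 CPM in the double mutant. The 2 members with the lowest p were Cdk1, the mitotic kinase (0.78 ± 0.30; edgeR adjusted p = 0.286), and Bub1b of the spindle checkpoint (0.52 ± 0.31; edgeR adjusted p = 0.546). Of 22 replication genes 0 were called by edgeR and 0 by DESeq2 (1 at an unadjusted p under 0.05; median 0.19). Ccne1 had a log2 fold change of 0.96 (edgeR adjusted p = 0.286), and Cdt1, a licensing factor, 0.49 with all samples and -0.074 without double mutant replicates 2 and 3. Chek1, the checkpoint kinase of replication stress, belonged to no list and rose: it had 2.89, 2.73, 2.48 and 2.29 CPM against 5.85, 4.72, 6.81, 4.43 and 5.62 CPM (1.08 ± 0.18; edgeR adjusted p = 0.0148; called in 6 of the 9 fits that left out 1 sample, largest adjusted p 0.0813).

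Within the PI3K and AKT list, 0 of 27 genes rose and 1 fell, with a median of -0.09; DESeq2 called 3 (Insr, Pdpk1 and Pik3r3). Insr, the insulin receptor, had 176, 176, 210 and 199 CPM against 123, 128, 150, 144 and 147 CPM, lower in every double mutant sample (-0.46 ± 0.10; edgeR adjusted p = 0.0449; 0.056 without replicates 2 and 3). It kept its call in 1 of the 9 fits that left out 1 sample (largest adjusted p 0.198) and lost it in the fit on the 9 samples alone (adjusted p = 0.059). Igf1r, the related growth factor receptor, had 217 to 337 CPM against 69.9 to 157 CPM without overlap (-1.23 ± 0.49; edgeR adjusted p = 0.304), and was called in the fit on the 9 samples alone (adjusted p = 0.024). Pik3r3, a regulatory subunit, had 12.4 to 18.4 CPM against 72.8, 26, 18.0, 73.1 and 70.7 CPM, with replicates 2 and 3 lowest (1.79 ± 0.55; edgeR adjusted p = 0.177). Of 16 genes of ERK feedback 0 were called by edgeR, 1 by DESeq2 (Fosl1) and 2 had an unadjusted p under 0.05. Dusp6, an ERK phosphatase, had 428 to 481 CPM against 270 to 386 CPM (-0.46 ± 0.20; edgeR adjusted p = 0.346), and Fosl1, an AP-1 subunit, 1.19, 1.05, 1.04 and 3.18 CPM against 1.33, 13.9, 14.0, 4.19 and 2.12 CPM (2.13 ± 0.69; edgeR adjusted p = 0.199; 0.65 without replicates 2 and 3). Of 15 immediate early genes 0 were called by edgeR, 2 by DESeq2 (Atf3 and Egr1) and 4 had an unadjusted p under 0.05. Egr1, an immediate early factor, had 1625 to 2662 CPM against 559, 1514, 1507, 912 and 749 CPM (-1.03 ± 0.28; edgeR adjusted p = 0.117). Without replicates 2 and 3 it was called, at a log2 fold change of -1.54 and an adjusted p of 0.019, as was Ier2, another immediate early gene (-0.68; adjusted p = 0.048). Atf3, a stress-induced factor, had 5.96 to 14.7 CPM against 10.7, 55.1, 45.3, 12.4 and 15.4 CPM (1.71 ± 0.57; edgeR adjusted p = 0.218; 0.59 without replicates 2 and 3).

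Of the milk genes, 1 of 18 rose and 0 fell, with a median of 1.2. Csn2, beta-casein, had 0.143, 0.124, 0.421 and 0.232 CPM in the PIK3CA mutant and 12.8, 12.1, 0.883, 7.57 and 1.87 CPM in the double mutant. The groups did not overlap but the double mutant samples spanned more than 10-fold (4.95 ± 1.03; edgeR adjusted p = 0.043; called in 1 of the 9 fits that left out 1 sample, largest adjusted p 0.153). Lao1, a milk L-amino acid oxidase, had at most 0.159 CPM in the PIK3CA mutant and 9.88, 3.29, 0, 6.54 and 10.3 CPM in the double mutant (edgeR adjusted p = 0.0533). Csn3, kappa-casein, was high in both groups, with a log2 fold change of 0.26 (edgeR adjusted p = 0.86). In the prolactin and STAT5 list 0 of 12 genes were called by edgeR and 0 by DESeq2 (1 at an unadjusted p under 0.05). Its members of lowest p were Socs1, a cytokine feedback inhibitor (0.53 ± 0.20; edgeR adjusted p = 0.265), and Tph1, the first enzyme of serotonin synthesis (2.18 ± 1.09; edgeR adjusted p = 0.439).

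Markers of the epithelial lineages gave few calls. Of 12 hormone-sensing luminal genes 1 rose (Areg) and 1 fell (Aff3), and Esr1, the estrogen receptor gene, had 18.4 and 18.1 CPM. Aff3, a nuclear factor, had 1.99, 5.02, 10.8 and 6.50 CPM against 0.496, 0.462, 0.314, 0.222 and 0.583 CPM, a fall of 3.86 ± 0.82 (edgeR adjusted p = 0.0472; called in 0 of the 9 fits that left out 1 sample, largest adjusted p 0.173; 0.12 without replicates 2 and 3). Greb1, an estrogen target, had 3.69, 4.44, 3.06 and 1.39 CPM against 0.231 to 0.37 CPM in 4 double mutant samples and 3.38 CPM in replicate 3. It was called without replicates 2 and 3 (edgeR adjusted p = 0.017) and without replicate 3 alone, and was picked after its values were seen. Of 13 luminal progenitor genes 0 were called by edgeR, 2 by DESeq2 (Cd14 and Itgb3) and 5 had an unadjusted p under 0.05. Itgb3, an integrin, had 220 to 278 CPM against 218, 56.2, 88.8, 90.5 and 97.4 CPM (-1.17 ± 0.28; edgeR adjusted p = 0.0736), with double mutant replicate 1 next to the PIK3CA mutant range. Cd14, a lipopolysaccharide co-receptor, had 573 to 752 CPM against 352, 357, 183, 403 and 346 CPM (-0.99 ± 0.27; edgeR adjusted p = 0.117). The lists of 13 luminal keratin and junction genes, 17 basal genes and 11 genes of epithelial-mesenchymal transition held 0 called genes by edgeR and by DESeq2, with 2, 2 and 0 at an unadjusted p under 0.05. Krt7, a luminal keratin, had 146 to 263 CPM against 276 to 785 CPM (1.08 ± 0.35; edgeR adjusted p = 0.201; 0.51 without replicates 2 and 3), and Tjp3 of tight junctions -0.44 (edgeR adjusted p = 0.249). Among basal genes, Acta2, smooth muscle actin, had a log2 fold change of -1.22 and Myh11, smooth muscle myosin, -0.75 (edgeR adjusted p = 0.335 and 0.289). Twist1 and Fap had the lowest p of the transition list, with edgeR adjusted p of 0.569 and 0.467.

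Lymphocyte, endothelial and macrophage markers were low, and most fibroblast markers tended to lower values in the double mutant. The part of these cell types in the results above was not tested. Lymphocyte genes summed to at most 0.944 CPM in any of the 9 samples over 4 of 10 listed genes with enough reads. Endothelial genes summed to 4.76 to 7.19 CPM and 2.87 to 14.3 CPM, and adipocyte genes to 18.8 to 36.5 CPM and 26.4 to 104 CPM, most of it Lpl. Of the macrophage genes, Adgre1, C1qa, Ptprc and Itgam were below 0.71 CPM in every one of the 9 samples, and the listed sum of 66.6 to 115 CPM came mainly from Cd163 and Cd68. The median log2 fold change of the macrophage list was -2.24, with 11 of 15 values negative. It was -0.02 in the fit on the 9 samples alone, where listed genes too low in these samples are filtered out. The macrophage list summed to 724 to 4379 CPM in WT, so genes near 0 in both groups could pass the filter through those libraries. Its sums overlapped between the groups, at 73.6 to 94.9 CPM in the PIK3CA mutant and 66.6 to 115 CPM in the double mutant. No trend is read from this list. Lyz2 had 1.89, 0.0413, 7.84 and 1.59 CPM in the PIK3CA mutant and at most 0.337 CPM in the double mutant, with overlap. Gpnmb had 0.351 to 6.05 CPM against at most 0.443 CPM, also with overlap. The fibroblast list summed to 689 to 1289 CPM and 453 to 1603 CPM, mostly Postn, while its median log2 fold change was -2.37 and 9 of 12 genes had an unadjusted p under 0.05. By edgeR 0 of them were called and by DESeq2 2 (Col3a1 and Pdgfra). Pdgfra, a receptor of stromal cells, had 38.3, 41.9, 63.3 and 40.2 CPM against 14.3, 6.75, 10.4, 24.4 and 13.4 CPM (-1.73 ± 0.46; edgeR adjusted p = 0.117). Its groups did not overlap, as in 3 of the 12 fibroblast genes, and it was called in the fit on the 9 samples alone (adjusted p = 0.025). Col3a1, a fibrillar collagen, had 0.223, 0.103, 10.6 and 29.1 CPM against at most 0.503 CPM, so its difference lay in PIK3CA mutant replicates 3 and 4 (edgeR adjusted p = 0.134). Among macrophage, lymphocyte, endothelial and adipocyte genes 0 were called by edgeR, DESeq2 called 1 (Gpnmb), and 2, 0, 0 and 1 had an unadjusted p under 0.05. The lowest p values of these lists belonged to Lyz2 and Gpnmb (edgeR adjusted p = 0.318 and 0.255), Cd3e and Cd79a (0.741 and 0.68), Pecam1 and Emcn (0.749 and 0.912), and Lpl and Retn (0.381 and 0.535).

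Interferon-stimulated genes varied inside the double mutant group. All 21 log2 fold changes were positive, with a median of 1.06, but 0 genes were called by edgeR and 1 by DESeq2 (Oas2), and 6 had an unadjusted p under 0.05. The list summed to 213 to 361 CPM in the PIK3CA mutant and to 289, 187, 190.5, 761 and 1038 CPM in double mutant replicates 1 to 5. Replicates 4 and 5 were high, replicate 1 lay inside the PIK3CA mutant range, and replicates 2 and 3 lay below it. Oas2, a sensor of double-stranded RNA, had 16.6 and 44.4 CPM in double mutant replicates 4 and 5. In the other 7 samples it had between 0.413 and 3.01 CPM (edgeR adjusted p = 0.187), and Oas3 had an edgeR adjusted p of 0.267. Of 15 MHC and antigen presentation genes 0 were called by edgeR and by DESeq2, with 0 at an unadjusted p under 0.05; H2-K1 and Nlrc5 came closest (edgeR adjusted p = 0.474 and 0.485). Of 16 acute-phase and antimicrobial genes 0 rose and 1 fell. C3, the central complement component, had 994, 812, 1482 and 877 CPM against 362, 602, 482, 340 and 428 CPM, without overlap (-1.23 ± 0.25; edgeR adjusted p = 0.0406; called in 1 of the 9 fits that left out 1 sample, largest adjusted p 0.181).

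The matrix, metabolic and signalling lists gave 0 calls by edgeR. In the fit on the 9 samples alone, edgeR called Mmp2, Mmp11, Bmp2 and Pfkl as lower and Adamts4 as higher (adjusted p between 0.01 and 0.0496). Of 20 collagen genes 5 had an unadjusted p under 0.05 and DESeq2 called 1 (Col3a1). Col1a1 had 12.5, 9.98, 65.0 and 250 CPM against 12.3 to 22.5 CPM (edgeR adjusted p = 0.297). Without double mutant replicates 2 and 3, Col4a4, a basement membrane collagen, was called as higher (0.90; edgeR adjusted p = 0.037). Of 18 matrix proteases and inhibitors 4 had an unadjusted p under 0.05 and DESeq2 called 0. Mmp2 had 86.7, 32.9, 52.6 and 96.6 CPM against 22.0 to 32.6 CPM, and Adamts4 5.61 to 7.75 CPM against 11.4 to 17.1 CPM (edgeR adjusted p = 0.203 and 0.187). Of 20 glycolysis and pentose phosphate genes 3 had an unadjusted p under 0.05 and DESeq2 called 1 (Tkt, log2 fold change 0.37 ± 0.11). Tkt and Taldo1, both of the pentose phosphate pathway, had the lowest p (edgeR adjusted p = 0.172 and 0.235). The list median was 0.10 with all samples and -0.50 without double mutant replicates 2 and 3, with 0 edgeR calls in each fit. The list summed to 13310 to 19720 CPM in the PIK3CA mutant. In double mutant replicates 1 to 5 it summed to 14380, 24790, 20120, 10280 and 9436 CPM. Leaving out replicates 2 and 3 in the fit on the 2 groups alone gave 9 calls in this list and 2359 over all genes. The 13 genes of the mitochondrial genome had 0 at an unadjusted p under 0.05 and 0 by DESeq2, with mt-Nd6 and mt-Nd3 of lowest p (edgeR adjusted p = 0.735 and 0.63). Of 15 Notch genes 2, of 24 Wnt genes 1 and of 21 TGF-beta and BMP genes 4 had an unadjusted p under 0.05, and DESeq2 called 0, 0 and 1 (Bmp2). Notch3 had 412 to 512 CPM against 207 to 384 CPM (-0.58 ± 0.17; edgeR adjusted p = 0.159) and Nrarp, a Notch target, -0.61 (edgeR adjusted p = 0.395). Bmp2, a growth factor, had 14.4 to 23.1 CPM against 3.08 to 7.57 CPM (-1.87 ± 0.48; edgeR adjusted p = 0.0968), and Tgfbr3 -0.48 (edgeR adjusted p = 0.363). In the Wnt list Wnt7b and Nkd2 had the lowest p (edgeR adjusted p = 0.268 and 0.499; Wnt7b 1.22, and 0.39 without replicates 2 and 3).

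Several of the lower genes outside these lists kept their call in every fit that left out 1 sample. Anxa9, an annexin, had 21.4, 17.5, 32.1 and 18.7 CPM against 7.14, 8.22, 6.11, 4.49 and 5.06 CPM (-1.85 ± 0.21; edgeR adjusted p = 0.000702). Mturn, first described in neural progenitors, had 15.4, 18.9, 16.7 and 14.0 CPM against 6.84, 4.01, 4.24, 5.28 and 3.21 CPM (-1.78 ± 0.20; edgeR adjusted p = 0.000702). Add3, an adducin of the spectrin and actin skeleton, had 210, 302, 349 and 286 CPM against 123, 118, 109, 94.7 and 89.9 CPM (-1.43 ± 0.17; edgeR adjusted p = 0.000702). Pcmtd2 had 62.7, 73.6, 77.3 and 64.4 CPM against 38.4, 40.0, 34.9, 36.1 and 33.0 CPM (-0.93 ± 0.11; edgeR adjusted p = 0.000702). In each of these 4 genes the groups did not overlap, as the rule for naming required, and the largest adjusted p over the 9 fits was 0.00767. Cecr2, a chromatin remodelling subunit, had 33.2 to 37.6 CPM against 6.22 to 16.1 CPM (-1.62 ± 0.25; edgeR adjusted p = 0.0128), and kept its call in 8 of the 9 fits.

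The lower genes of largest fold change were less stable to leaving out a sample. None overlapped between the groups, which the rule for naming genes required. Galnt15, a glycosyltransferase that starts mucin-type O-glycans, had 21.2, 62.6, 74.3 and 39.6 CPM against 1.38, 3.96, 1.00, 7.48 and 1.17 CPM (-4.04 ± 0.82; edgeR adjusted p = 0.0399). Abcc3, an exporter of organic anions, had 17.4, 33.5, 57.5 and 36.9 CPM against 2.2, 5.18, 8.85, 4.23 and 3.56 CPM (-2.92 ± 0.56; edgeR adjusted p = 0.0288). Syn2, a synapsin, had 55.7 to 174 CPM against 5.2 to 28.8 CPM (-2.60 ± 0.56; edgeR adjusted p = 0.0496). Entpd1, the ectoenzyme CD39 that degrades extracellular ATP, had 21.7, 4.77, 6.33 and 12.7 CPM against 1.24 to 4.76 CPM, so its groups nearly touched (-2.10 ± 0.41; edgeR adjusted p = 0.0341). Gpx3, a secreted glutathione peroxidase, had 7.95 to 21.6 CPM against 2.56 to 6.28 CPM (-1.90 ± 0.33; edgeR adjusted p = 0.0211). Ttc28 had 46.4 to 58.7 CPM against 12.2 to 16.7 CPM (-1.82 ± 0.33; edgeR adjusted p = 0.0241). Ccdc60 had 4.07 to 5.64 CPM against 0.798 to 1.75 CPM (-1.96 ± 0.38; edgeR adjusted p = 0.0305), and Mtcl1, a microtubule crosslinking protein, 18.2 to 19.6 CPM against 4.30 to 10.6 CPM (-1.65 ± 0.36; edgeR adjusted p = 0.0499). These 8 genes kept their call in 0 (Syn2), 1 (Galnt15, Ttc28, Ccdc60 and Mtcl1), 2 (Abcc3 and Entpd1) or 3 (Gpx3) of the 9 fits. Their largest adjusted p lay between 0.0813 for Gpx3 and 0.213 for Syn2. Galnt15, Syn2, Entpd1, Ttc28 and Ccdc60 were also not called without double mutant replicates 2 and 3 (edgeR adjusted p between 0.059 and 0.12).

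Of the higher genes named by size that belong to no list, 3 remain. Trim6, a ubiquitin ligase, had 0.922, 1.53, 1.64 and 1.22 CPM against 3.95, 4.07, 4.85, 4.34 and 6.51 CPM (1.84 ± 0.34; edgeR adjusted p = 0.0241; called in 4 of the 9 fits that left out 1 sample). Cdr2 had 3.63 to 6.38 CPM against 9.35 to 17.5 CPM (1.59 ± 0.34; edgeR adjusted p = 0.0496; called in 0 of these fits, largest adjusted p 0.207; 0.11 without replicates 2 and 3). Snhg15, a noncoding host of small nucleolar RNAs, had 9.83 to 14.7 CPM against 21.9, 48.4, 47.4, 23.5 and 20.2 CPM (1.34 ± 0.28; edgeR adjusted p = 0.0483; called in 1 of the fits). Double mutant replicates 2 and 3 held the highest Snhg15 values, and without them its adjusted p was 0.10.

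The same mutation without PIK3CA was measured in the HER2 mutant and WT samples, which share no library with the comparison above but differ in source, tumor against normal breast. In that contrast 4.75% of the genes tested were called higher and 5.63% lower. Of the 75 genes higher in the double mutant, 35 (46.7%) were also called higher in the HER2 mutant over WT, which is 3.04% of that list, and 1 was called lower. The 35 include Rbp3, Krtap29-1, Gsdma2 and Gsdma, which were singled out above for being read in the HER2 mutant and double mutant libraries. Of the 88 lower genes, 32 (36.4%) were also called lower, which is 2.34% of that list, and 3 were called higher. Erbb2, Areg, Hspa5 and Chek1 were among those higher in both, with HER2 over WT log2 fold changes of 4.53, 2.24, 1.2 and 1.00. Of the 8 called ATF4 and ER stress genes, Hspa5 and Sesn2 were called there as well, Sesn2 at 0.81 (edgeR adjusted p = 0.0227). The other 6 were not: Asns was at 1.27, Mthfd2 at 0.81, Chac1 at 0.46, Atf4 at 0.24, Slc7a11 at 0.04 and Trib3 at 0.0081 (edgeR adjusted p between 0.059 and 0.987).

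The difference between the HER2 change with and without the PIK3CA mutation was tested as an interaction, which was past the threshold in 1.06% of all genes tested and in 16 of the 163 called genes. Because the 163 genes were selected on 1 side of this contrast, that count is a description. The side without the PIK3CA mutation, HER2 mutant over WT, also compares tumor with normal breast. The HER2 mutation and the source cannot be told apart there. Among the named genes, Grb7 fell by 1.63 in the PIK3CA background and had a log2 fold change of -0.52 in the HER2 mutant over WT (interaction -1.11 ± 0.22; edgeR adjusted p = 0.0243). For Erbb3 the values were -1.18 and -0.48 (interaction -0.70 ± 0.18; edgeR adjusted p = 0.0819), and for Erbb2 3.59 and 4.53 (interaction -0.93 ± 0.32; edgeR adjusted p = 0.183). Slc7a11 had an interaction of 1.94 ± 0.55 (edgeR adjusted p = 0.105) and Trib3 of 0.98 ± 0.30 (edgeR adjusted p = 0.139), and none of the 8 ATF4 and ER stress genes passed this test.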

How the data were processed

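RNA-seq of 16 mouse mammary organoid samples was used. The authors deposited raw read counts per gene, and a second table whose values (signal) equal, per the deposited counts, each count divided by a median-of-ratios size factor (largest relative difference 1.57e-09). The submitters' processing notes name bcl2fastq 2.20, STAR 2.0.4b, Subread, featureCounts 1.4.5, DESeq2 1.33.5 and mm10, without roles; strandedness is not given in the sources used here. After dropping 287 repeated identifiers, 55487 remained. No 2 libraries held identical counts.

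Groups follow the genotype labels. The counts of all 16 samples were fitted by genotype with edgeR 4.0.16 (filterByExpr, TMM, glmQLFit, two-sided glmQLFTest; R 4.3.3), with Benjamini-Hochberg adjustment over 24252 genes and calls under 0.05. The script was tested on simulated data. SE is the log2 fold change divided by the root of F; log2 CPM used a prior count of 2. Named genes were called, did not overlap, had mean log2 CPM of at least 1 and were not predicted genes: the 12 largest changes and 6 lowest p in each direction, plus called list members or, without any, the 2 of lowest p. The genes, lists and rules were chosen with earlier results of these data known. Of 538 listed genes, 21 were not tested, nearly all for low counts, and Orm1, listed beside Erbb2 in error, was left out of the counts of its neighbours. Some genes that the rule names are not reported here.

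Alternatives were other scalings, no filter, only the 9 samples, a replicate block, a GC and length offset, DESeq2 1.42.0, limma 3.58.1 on log2(normalized value + 1), and leaving out each sample. Leaving out double mutant replicates 2 and 3, or the HER2 mutant group, was chosen after seeing the data. Counting error is small at 47639790 to 64168308 counts per library: 3 counts in the PIK3CA mutant group equal 0.0141 CPM.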

Additional observations from a re-analysis of the deposited data

Results flagged for a closer look

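Single values stood apart from the others of their group by more than the 95% limit of Dixon's test on log2 CPM, which chance exceeds in about 1 of 20 groups. There were 94 named genes, so some values pass this limit by chance, and those below are a description only. In the PIK3CA mutant, replicate 4 was highest for Fosl1 (3.18 CPM), Sesn2 (54.4 CPM) and Atf4 (198 CPM), replicate 3 was lowest for Acta2 (98.0 CPM), and replicate 1 was lowest for Grb7 (80.3 CPM). In the double mutant, replicate 3 was lowest for Slc7a11 (6.42 CPM) and Cd14 (183 CPM), and replicate 5 was lowest for Myh11 (1.07 CPM).

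The change of double over PIK3CA mutant differed from that of HER2 mutant over WT, by the interaction test of edgeR, in 10 named genes. Of these, 8 were called in the PIK3CA background. The HER2 mutant over WT change also compares tumor with normal breast, so the mutation and the source cannot be told apart in it. The difference, with the PIK3CA background minus the WT background, was -10.8 for Csn2, -1.96 for Lpcat4, 1.46 for Plk2, -0.80 for Pcmtd2, -1.11 for Grb7, -3.46 for Mtcl1, -2.46 for Anxa9 and -3.02 for Ccdc60 on the log2 scale. For Socs1 and Myh11, which were not called in the PIK3CA background, it was 1.54 and 2.06. The edgeR adjusted p ranged from 0.00521 for Anxa9 to 0.0452 for Plk2. Csn2 averaged 8962 CPM in the HER2 mutant and 7.04 CPM in the double mutant.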

How the results depend on the processing

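The count of 163 genes was 154 with median-of-ratios scaling, 176 with upper-quartile scaling, 125 without the filter, 138 with the GC and length offset and 166 with limma, each within 1.5 times. It was 364 in the fit on the 9 samples alone and 611 with DESeq2, and leaving out each sample in turn gave 17 to 143. Of the alternatives chosen after seeing the data, leaving out double mutant replicates 2 and 3 gave 213 calls, 91 of them shared, doing so in the fit on those groups alone gave 2359, and leaving out the HER2 mutant group gave 589. The replicate block left 19 calls (4 higher, 15 lower) and, with the GC and length offset, 18; the higher share was 46.0% in the fit without the block, 21.1% with the block and 22.2% with block and offset. The labels do not say whether same-numbered samples share a batch. Deviations of same-numbered samples correlated at -0.139 to 0.149 over 4 pairs, and 0 of the 4 PIK3CA mutant samples correlated best with their own number. With so few pairs these correlations cannot decide whether the block is needed. Among 94 named genes, 44 of them called, only 2 changed sign: Retn to -0.20 and Cdt1 to -0.074 without double mutant replicates 2 and 3, and Cdt1 to -0.075 without them in the fit on those groups alone; neither was called with all samples. Over the named genes and alternatives, direction and side of the threshold were kept in 1568 cases, a call was lost in 345 and gained in 49. The causes were not tested. Genes near the threshold depend on 4 and 5 samples, and those under 1 CPM rest on few reads.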
